A study of Danio rerio with 10 samples.

Results

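Collagens are the main structural proteins of the extracellular matrix, and the genes described here are the zebrafish genes named as collagen chains in a count table of sorted pectoral fin cells at 48 h post-fertilization (hpf). They were taken by name, as every row of the gene count table whose symbol starts with col, a type number, the letter a and a chain number. Of 32520 genes in the table, 55 had such a symbol, and all 55 had at least 10 counts summed over the 4 libraries. They carry 53 symbols, because *col6a3* and *col19a1* each stand for 2 Ensembl identifiers. By collagen type, 10 are fibrillar, 9 belong to the cartilage types 2, 9 and 11, 6 to the basement membrane type 4 and 30 to other types.

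A collagen molecule is a triple helix of 3 chains, which may be copies of a single chain or products of several genes, so the chains of a type are named alpha 1, alpha 2 and so on. Fibrillar types assemble into the cross-striated fibrils of skin, tendon, bone and fin, with type 2 as the fibril of cartilage and notochord, type 11 in its core and type 9 on its surface. Type 4 builds the sheet-like network of basement membranes, and the remaining types decorate fibrils, anchor epithelia or form networks of their own. Chains are hydroxylated and folded in the endoplasmic reticulum, trimmed outside the cell and then crosslinked by lysyl oxidases. Many zebrafish collagen genes are present as 2 copies, a and b, left from a genome duplication in the ancestor of teleost fish.

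The study asked what loss of Prdm1a, a zinc finger transcription factor, does to gene expression in the developing pectoral fin. The libraries were made from sorted EGFP-positive cells of WT embryos and of *prdm1a-/-* embryos homozygous for the m805 allele, 2 libraries of each genotype, numbered as biological replicates 1 and 2. Embryos of both genotypes carried Tg(Mmu:Prx1-EGFP), in which a mouse Prx1 enhancer drives EGFP in the pectoral fin, the pharyngeal arches and the dorsal head. Heads and arches were cut away before sorting, and the paper states that residual tissue of the arches and dorsal head may have remained. The paper describes an intercross of *prdm1a+/-* carriers of the transgene as the source of the embryos. It calls the control embryos of the RNA-seq WT, and in its fin measurements it counted heterozygotes as WT. Whether the WT libraries held heterozygous embryos is not stated for the RNA-seq. Homozygous mutants were picked by their pigment phenotype, and embryos were pooled, so the spread between replicates is a spread between pools.

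Library totals ran from 20303621 to 26798799 counts, and 20007 genes, 53 of them collagen genes, had enough counts for testing. Levels are given in CPM, counts scaled to the same library total and then by the trimmed mean of M values (TMM), and they are not divided by gene length, so they compare libraries and not genes. Unless another tool is named, tests are edgeR's two-sided quasi-likelihood test with both genotype and replicate number in the model, with Benjamini-Hochberg adjustment over the 20007 genes, and a gene is said to have risen or fallen only at an adjusted p under 0.05. Fold changes are log2 values of *prdm1a-/-* over WT within replicate number, and replicate differences are log2 values of replicate 2 over replicate 1 within genotype. Where 2 values are given for a replicate, the first is WT and the second *prdm1a-/-*. The labels do not say what libraries with the same number share, and with genotype as the only term no gene of the 20007 passed. The m805 allele carries a premature stop codon, and the level of *prdm1a* RNA is therefore no check of the genotype. *prdm1a* was at 50.0 CPM in WT and 123 CPM in *prdm1a-/-* of replicate 1, and at 232 CPM in WT and 302 CPM in *prdm1a-/-* of replicate 2, and the estimate of 0.83 (SE 0.198, adjusted p = 0.0932) did not pass.

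The largest differences among collagen genes were between the replicate numbers. Of the 53 tested members, 38 were lower and 1, *col7a1l*, was higher in replicate 2 than in replicate 1. This made 71.7% of members lower in replicate 2, beside 10.6% of all genes tested, and 39 members differed in either direction, beside 24.7% of all genes. Summed over all members, collagen RNA was at 115804 CPM in WT and 115434 CPM in *prdm1a-/-* of replicate 1 and 37617 and 46417 CPM in those of replicate 2. The replicate 1 libraries were thus 3.08-fold higher in WT and 2.49-fold higher in *prdm1a-/-*, and *prdm1a-/-* over WT was -0.0046 in replicate 1 and 0.30 in replicate 2 on the log2 scale.

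Few collagen genes passed the test for genotype. Their share was above that of all genes but rests on 3 members, or 1 with other scaling (RLE size factors or library totals). Count levels were not matched between collagen genes and all genes. In the within-number comparison 2 members rose in *prdm1a-/-* (*col28a2a* and *col5a3b*) and 1 fell (*col8a2*), which is 5.66% of the 53, beside 1.01% of all genes tested. At an unadjusted p under 0.05 there were 8 higher and 11 lower members, or 35.8%, beside 12.4% of all genes. With genotype alone in the model none of the 53 passed, and 1, *col8a2*, had an unadjusted p under 0.05. Leaving out any of the 4 libraries leaves too few to keep replicate number in the model, so such fits cannot test the within-number comparison. The median log2 fold change was 0.088 over the 53 members, beside 0.0068 over all genes tested. Levels of the 2 genotypes did not overlap for 11 members (20.8%), 5 higher and 6 lower in the mutants, beside 26.2% of all genes.

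**Figure D1:**
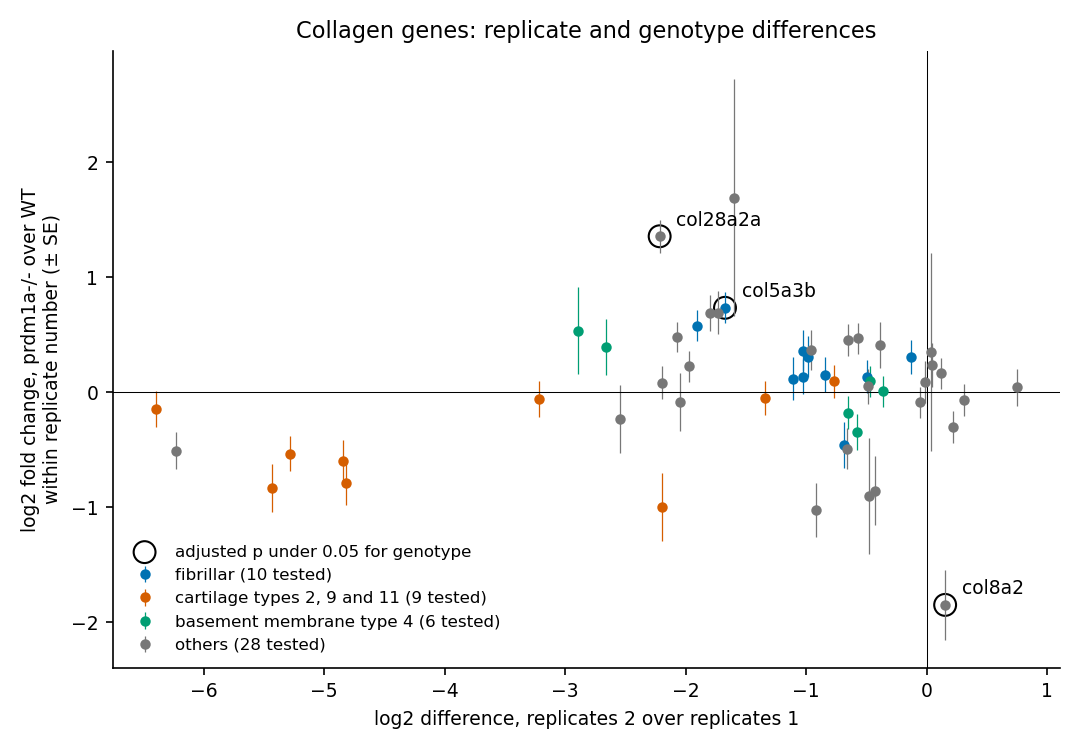
Each point is one of the 53 tested collagen genes, coloured by class, with the log2 difference between replicate numbers on the x axis and the genotype difference (log2, mutant relative to WT), with its standard error as a bar, on the y axis. The points run from -6.40 to 0.75 along the replicate axis, and circles mark the 3 genes called for genotype. At the far left lie 6 of the 9 cartilage genes and col8a1a, while col2a1b, col9a1a and col11a1b lie among the other classes.

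The cartilage collagens differed most between replicate numbers. All 9 genes of types 2, 9 and 11 were lower in replicate 2 than in replicate 1, beside 10.6% of all genes. Their median difference was -4.82, with a range from -6.40 to -0.77 on the log2 scale. Their summed level was 49607 CPM in WT and 40053 CPM in *prdm1a-/-* of replicate 1 and 3914 and 3184 CPM in those of replicate 2, a difference of 12.7-fold in WT and 12.6-fold in *prdm1a-/-*. Of all genes tested, 0.385% lay below -4 on this scale, and they included 5 cartilage collagens and the short-chain network collagen gene *col8a1a*.

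*col2a1a* encodes the alpha 1 chain of type 2 collagen, the fibril of cartilage and notochord sheath. It was at 21513 CPM in WT and 16295 CPM in *prdm1a-/-* of replicate 1, and at 672 CPM in WT and 280.5 CPM in *prdm1a-/-* of replicate 2. Both replicate 1 libraries were far above both replicate 2 libraries, with a replicate difference of -5.43 (SE 0.248, adjusted p = 3.29e-07), or 43.1-fold. *col9a1b*, for the alpha 1 chain of type 9 collagen on the fibril surface, was at 6185 CPM in WT and 4918 CPM in *prdm1a-/-* of replicate 1, and at 64.3 CPM in WT and 66.6 CPM in *prdm1a-/-* of replicate 2. Its difference of -6.40 (SE 0.198, adjusted p = 5.74e-08) was 84.2-fold, the greatest of the 53 members.

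The alpha 2 and alpha 3 chains of type 9 had nearly the same replicate difference. *col9a2* was at 3252 and 2710.3 CPM in replicate 1 and 143 and 74.6 CPM in replicate 2. *col9a3* was at 2533 and 1910.5 CPM in replicate 1 and 118 and 51.7 CPM in replicate 2. Their replicate differences were -4.84 (SE 0.208) and -4.82 (SE 0.218), so that no replicate 2 library came near a replicate 1 library for either chain. *col9a1a* had a smaller replicate difference, -2.20 (SE 0.300, adjusted p = 4.20e-04), from 245 and 209.5 CPM in replicate 1 and 91.3 and 26.1 CPM in replicate 2.

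In type 11, which forms the core of cartilage fibrils, the chains differed in size of the replicate difference. *col11a2* was at 4763 and 3608 CPM in replicate 1 and 134 and 84.4 CPM in replicate 2, with a replicate difference of -5.28 (SE 0.179). *col11a1a* was at 6829.7 and 5847 CPM in replicate 1 and 654 and 704 CPM in replicate 2, with a difference of -3.22 (SE 0.169). *col11a1b* had the smallest difference of the 9 genes, -0.77 (SE 0.145), with 1063 and 1252 CPM in replicate 1 and 687 and 666 CPM in replicate 2.

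**Figure D2:**
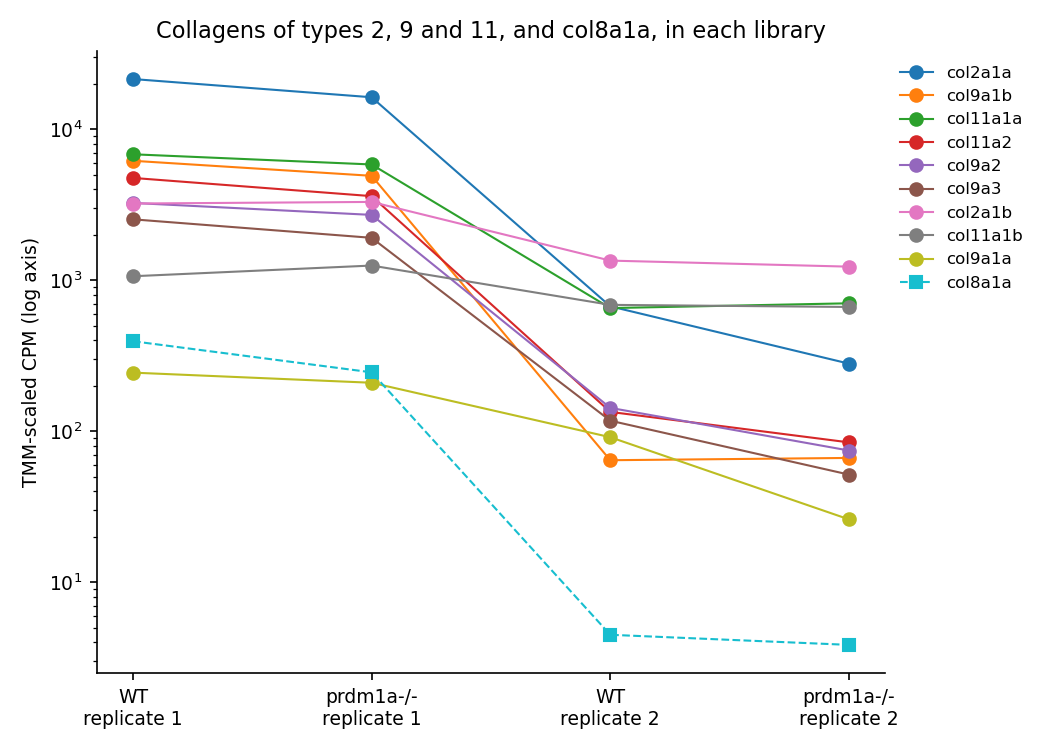
TMM-scaled CPM on a log axis for the 9 genes of collagen types 2, 9 and 11 (circles) and for col8a1a (squares) in the 4 libraries, with lines joining the values of a gene. Every gene lies higher in both replicate 1 libraries than in both replicate 2 libraries, and the gaps of col2a1b, col11a1b and col9a1a are the smallest.

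By genotype no cartilage collagen passed the test, and all point estimates but that of *col11a1b* were below 0. Their median log2 fold change was -0.53, with -0.26 within replicate 1 and -0.67 within replicate 2. Of the 9, 5 were lower in the mutant of both pairs (55.6%, beside 29.7% of all genes). At an unadjusted p under 0.05 there were 5 lower genes (*col2a1a*, *col9a1a*, *col9a2*, *col9a3* and *col11a2*) and 0 higher. This was 55.6% of the 9, beside 12.4% of all genes in either direction. The lowest adjusted p was that of *col9a3*, with a fold change of -0.79 (SE 0.188, adjusted p = 0.0932). For *col2a1a* the fold change was -0.83 (SE 0.208, adjusted p = 0.110), from -0.40 in replicate 1 and -1.26 in replicate 2. DESeq2 with the same terms called 2 of the 9, *col2a1a* and *col9a3*, limma-voom called these and *col11a2*, and edgeR with genotype alone called 0, with 0 at an unadjusted p under 0.05. With no filter on low counts, edgeR with the block called all 5 of the genes named above (adjusted p = 0.00164 for *col2a1a*). The other edgeR fits with the block called 0 of the 9. For *col2a1a* the adjusted p in these fits was 0.193 with RLE size factors and 0.284 with library totals. It was 0.133 with a minimum count asked for in every library and 0.109 with counts halved. The paper names *col2a1a* among the fin genes significantly lower in *prdm1a-/-* embryos. It used DESeq2 with a cut-off stated as a p-value, so its threshold is not the adjusted p used here.

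For the other 4 cartilage genes the genotype values were close to 0 or differed in sign between the pairs. The fold change was -0.14 (SE 0.158) for *col9a1b*, -0.060 (SE 0.155) for *col11a1a*, -0.049 (SE 0.145) for *col2a1b* and 0.094 (SE 0.144) for *col11a1b*. *col9a1a*, which is not one of these 4 but of the lower genes named before, had ratios of -0.22 in replicate 1 and -1.81 in replicate 2. Its estimate was -0.997 (SE 0.293, adjusted p = 0.180).

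Many chondrocyte markers were also lower in replicate 2, by less than the cartilage collagens over the list as a whole. All 17 listed markers were detected, and their summed level was 4722 CPM in WT and 3822 CPM in *prdm1a-/-* of replicate 1 and 2082 and 1525 CPM in those of replicate 2. Of the 17, 10 (58.8%, beside 10.6% of all genes) were lower and 1 was higher in replicate 2. The higher one was *sox9a*, a transcription factor gene of early cartilage cells. The median difference of the 17 was -0.64, beside -4.82 for the 9 cartilage collagens. Below -4 lay 5 of the 17 markers, as did 5 of the cartilage collagens. Among these markers, the cartilage matrix genes *matn3a* and *epyc* had differences of -5.84 (SE 0.166) and -6.12 (SE 0.170). *sox9a* was at 134 and 134 CPM in replicate 1 and 274 and 197 CPM in replicate 2, higher by 0.79 (SE 0.152) in replicate 2, and *matn1* had 0 counts in the mutant library of replicate 1, which allows up to 0.294 CPM if 3 read pairs enter as 6 counts.

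Markers of notochord and muscle also differed in this direction. For 14 notochord markers the summed level was 1107 CPM in WT and 1061 CPM in *prdm1a-/-* of replicate 1 and 684 and 658 CPM in those of replicate 2. Of the 13 tested, 7 (53.8%, beside 10.6% of all genes) were lower and 2 (*cavin1a* and *mgll*) higher in replicate 2, with a median difference of -0.62. The one furthest apart was the notochord transcription factor gene *tbxta*, at 69.3 and 55.3 CPM in replicate 1 and 2.49 and 2.31 CPM in replicate 2. For 11 skeletal muscle markers the summed level was 11909.8 CPM in WT and 10525 CPM in *prdm1a-/-* of replicate 1 and 1805 and 2615 CPM in those of replicate 2, and for 15 fin mesenchyme markers 9854 CPM in WT and 8573 CPM in *prdm1a-/-* of replicate 1 and 3492 and 4659 CPM in those of replicate 2. In replicate 2, 10 of the 11 muscle markers were lower and 0 higher, with a median difference of -2.11. Of the 15 fin mesenchyme markers, 9 were lower and 0 higher, with a median difference of -0.86. One of these 15, *tbx5a*, is a transcription factor gene of the pectoral fin field. It was at 59.9 and 66.3 CPM in replicate 1 and 76.8 and 50.2 CPM in replicate 2. Not all marker lists had a clearly higher sum in replicate 1. The summed level in replicate 1 over that in replicate 2 was 0.965 in WT and 1.13 in *prdm1a-/-* for tendon. It was 0.975 and 1.24 for epidermis and apical fold, 1.04 and 1.08 for endothelium and 0.792 and 1.504 for neuron markers. For osteoblast markers it was 1.61 and 1.51, and for blood 1.80 and 1.98. For pharyngeal arch markers it was 1.27 and 1.19, and for neural crest and pigment 1.26 and 0.985. Sums weigh abundant genes most. Single markers lower and higher in replicate 2 were 7 and 3 of 13 for epidermis and apical fold and 4 and 2 of 9 for tendon. They were 1 and 1 of 8 for endothelium and 2 and 0 of 9 for neuron. The part of these cell types in the collagen differences was not tested, and in such bulk libraries fewer cells of a type cannot be told apart from less RNA per cell.

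Of the 17 chondrocyte markers 1 (5.88%) fell in *prdm1a-/-*, beside 1.01% of all genes that rose or fell. This was *sox9b*, with 243 and 129 CPM in replicate 1 and 159 and 81.3 CPM in replicate 2. Its fold change was -0.94 (SE 0.132, adjusted p = 0.00751). At an unadjusted p under 0.05, 9 of the 17 (52.9%) were lower and 0 higher, beside 12.4% of all genes in either direction. In both pairs 10 (58.8%, beside 29.7% of all genes) were lower, and the median fold change was -0.36. Pigment cell and neural crest markers bear on how the mutants were picked. Their summed level was 213 CPM in WT and 68.0 CPM in *prdm1a-/-* of replicate 1 and 169 and 69.0 CPM in those of replicate 2. Of these 11 markers 5 fell (45.5%, beside 1.01% of all genes that rose or fell). Of 15 fin mesenchyme markers 2 fell (13.3%), *hand2* and *and3*. Of 9 pharyngeal arch markers 4 fell (44.4%), *hand2* among them. Of 11 skeletal muscle markers 2 fell (18.2%), of 9 neuron markers 2 (22.2%) and of 11 blood markers 1 (9.09%). No marker of notochord, osteoblast, tendon, epidermis and apical fold, or endothelium rose or fell. The part of these shifts in the collagen values was not tested.

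Among the 10 fibrillar collagens 1 rose in *prdm1a-/-* and none fell, or 10% beside 1.01% of all genes that rose or fell. In replicate 2, 9 (90%, beside 10.6% of all genes) were lower than in replicate 1. The summed level was 55762 CPM in WT and 63962 CPM in *prdm1a-/-* of replicate 1 and 26430.2 and 35522 CPM in those of replicate 2, 2.11-fold higher in replicate 1 for WT and 1.80-fold for *prdm1a-/-*. The median fold change by genotype was 0.23, with 0.30 within replicate 1 and 0.11 within replicate 2. Ratios were above 0 in both pairs for 7 of the 10 genes (70%, beside 29.7% of all genes). They were below 0 in both for 1 (10%, beside 29.7%), *col27a1b*.

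The gene that rose was *col5a3b*, for an alpha 3 chain of type 5 collagen, a regulatory fibril collagen that controls fibril diameter. It was at 583 CPM in WT and 968 CPM in *prdm1a-/-* of replicate 1, and at 182 CPM in WT and 304 CPM in *prdm1a-/-* of replicate 2. The mutant was higher in each pair, by 0.73 in replicate 1 and 0.73 in replicate 2, while the mutant of replicate 2 lay below the WT of replicate 1, so the genotypes overlapped. The fold change was 0.73 (SE 0.135, adjusted p = 0.0341), with an adjusted p of 0.9999 with genotype alone, of 0.0653 with RLE size factors and of 0.124 with scaling to library totals. Without 1 of the 4 libraries it ranged from -0.34 to 1.80, turning below 0 without the mutant library of replicate 1. These fits have no replicate term, so the replicate difference enters their values by construction and they cannot test the within-pair difference.

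Its relative *col5a2b*, for an alpha 2 chain of the same type, was at 129.7 CPM in WT and 182 CPM in *prdm1a-/-* of replicate 1, and at 32.5 CPM in WT and 51.8 CPM in *prdm1a-/-* of replicate 2. The mutant was again higher in both pairs, and the estimate of 0.58 (SE 0.135, adjusted p = 0.0879) missed the threshold, which limma-voom (adjusted p = 0.0483) and edgeR with no filter (adjusted p = 0.0265) passed. It had the largest replicate difference of the fibrillar genes, -1.90 (SE 0.139, adjusted p = 5.55e-06). By contrast *col5a2a* was at 1111 and 1510.4 CPM in replicate 1 and 1113 and 1253 CPM in replicate 2, with a replicate difference of -0.13 (SE 0.146, adjusted p = 0.564).

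The type 1 genes, for the main fibril of skin and bone, took the most counts. *col1a1a* was at 42930.2 CPM in WT and 47966 CPM in *prdm1a-/-* of replicate 1, and at 18338 CPM in WT and 27121 CPM in *prdm1a-/-* of replicate 2. Its levels were higher in the mutant of both pairs, and the fold change of 0.36 (SE 0.176, adjusted p = 0.444) did not pass. For *col1a1b* and *col1a2* the fold changes were 0.14 (SE 0.154) and 0.15 (SE 0.154), with ratios close to 0 in replicate 2. The 3 type 1 genes were all lower in replicate 2, with differences of -1.02 (SE 0.178) for *col1a1a*, -1.03 (SE 0.155) for *col1a1b* and -0.85 (SE 0.155) for *col1a2*.

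The remaining fibrillar genes had adjusted p-values for genotype between 0.383 and 0.864. *col27a1b*, which is also known from cartilage in mice, was at 51.1 and 49.3 CPM in replicate 1 and 42.1 and 22.9 CPM in replicate 2, with a fold change of -0.46 (SE 0.201). *col24a1* was at 38.3 and 57.7 CPM in replicate 1 and 23.6 and 23.9 CPM in replicate 2, with a fold change of 0.31 (SE 0.180). The fold changes of *col5a1*, *col5a2a* and *col5a3a* ran from 0.12 to 0.31.

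Of the 6 basement membrane genes of type 4, none rose or fell by genotype, with 0 at an unadjusted p under 0.05 and 0 calls by DESeq2, limma-voom or edgeR with genotype alone. The median fold change was 0.051. In replicate 2, 5 of the 6 (83.3%, beside 10.6% of all genes) were lower than in replicate 1. The chains split into a pair with large and 2 pairs with small differences. *col4a3* and *col4a4*, whose human counterparts form the network of the kidney filter, were the ones with large differences.

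*col4a3* was at 42.6 CPM in WT and 33.7 CPM in *prdm1a-/-* of replicate 1, and at 2.67 CPM in WT and 8.62 CPM in *prdm1a-/-* of replicate 2. *col4a4* was at 34.5 and 34.2 CPM in replicate 1 and 3.91 and 7.31 CPM in replicate 2. Their replicate differences were -2.90 (SE 0.392) and -2.66 (SE 0.251). In replicate 2 the WT levels were the lowest of the 4 libraries for both genes, and the genotype ratio for *col4a3* was -0.34 in replicate 1 and 1.69 in replicate 2, so it changed sign between the pairs.

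*col4a5* and *col4a6* encode chains of smooth muscle and epidermal basement membranes in mammals. *col4a5* was at 688 and 724 CPM in replicate 1 and 488 and 529 CPM in replicate 2, and *col4a6* was at 564 and 574 CPM in replicate 1 and 443 and 439 CPM in replicate 2. Their fold changes were 0.10 (SE 0.135) and 0.0065 (SE 0.134). The replicate difference of *col4a6*, -0.37 (SE 0.135, adjusted p = 0.0752), was the one of the 6 that did not pass. The ubiquitous chain genes *col4a1* and *col4a2* had replicate differences of -0.65 (SE 0.144) and -0.57 (SE 0.160) and fold changes of -0.18 (SE 0.144) and -0.34 (SE 0.160).

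Among the 30 genes of other types, 28 could be tested. By genotype 1 rose and 1 fell, or 7.14% beside 1.01% of all genes. In replicate 2, 15 were lower than in replicate 1 (53.6%, beside 10.6% of all genes) and 1 was higher (3.57%, beside 14.1%). *col28a2a*, for a type 28 collagen related to the beaded filament type 6, had the lowest adjusted p of all members. It was at 266 CPM in WT and 607 CPM in *prdm1a-/-* of replicate 1, and at 50.9 CPM in WT and 146 CPM in *prdm1a-/-* of replicate 2. The mutant was above its WT in each pair, by 1.19 in replicate 1 and 1.53 in replicate 2, and the WT of replicate 1 lay above the mutant of replicate 2. The fold change was 1.36 (SE 0.145, adjusted p = 0.00235), or 2.56-fold, it passed in all 8 fits with the replicate number in the model (highest adjusted p = 0.0423), and with genotype alone the adjusted p was 0.9999. Without 1 of the 4 libraries, and so without a replicate term, it ranged from -0.12 to 2.89. It turned below 0 without the mutant library of replicate 1, and the replicate difference enters these values by construction.

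*col28a2b*, the second copy, had 10 and 22 counts in replicate 1 and 2 and 12 counts in replicate 2. The ratio was above 0 in both pairs, and with so few counts the estimate of 1.69 (SE 1.03, adjusted p = 0.560) has a wide error. *col28a1a* was at 13.1 and 13.6 CPM in replicate 1 and 2.80 and 1.85 CPM in replicate 2, with a replicate difference of -2.54 (SE 0.306, adjusted p = 1.74e-04) and a fold change of -0.23 (SE 0.294).

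*col8a2* was the member that fell. It encodes a chain of type 8 collagen, a short-chain network collagen best known from the cornea in humans. It was at 34.2 CPM in WT and 16.1 CPM in *prdm1a-/-* of replicate 1, and at 62.6 CPM in WT and 10.3 CPM in *prdm1a-/-* of replicate 2. Both mutant libraries were below both WT libraries, and the ratio was -1.09 in replicate 1 and -2.61 in replicate 2. The fold change was -1.85 (SE 0.303, adjusted p = 0.0188), or 3.60-fold lower, with an adjusted p of 0.9999 with genotype alone, 0.0610 with RLE size factors and 0.179 with scaling to library totals. Without 1 of the 4 libraries, and so without a replicate term, it ranged from -2.25 to -1.38. With both mutant values below both WT values, the sign in these fits was fixed in advance and is no further test.

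**Figure D3:**
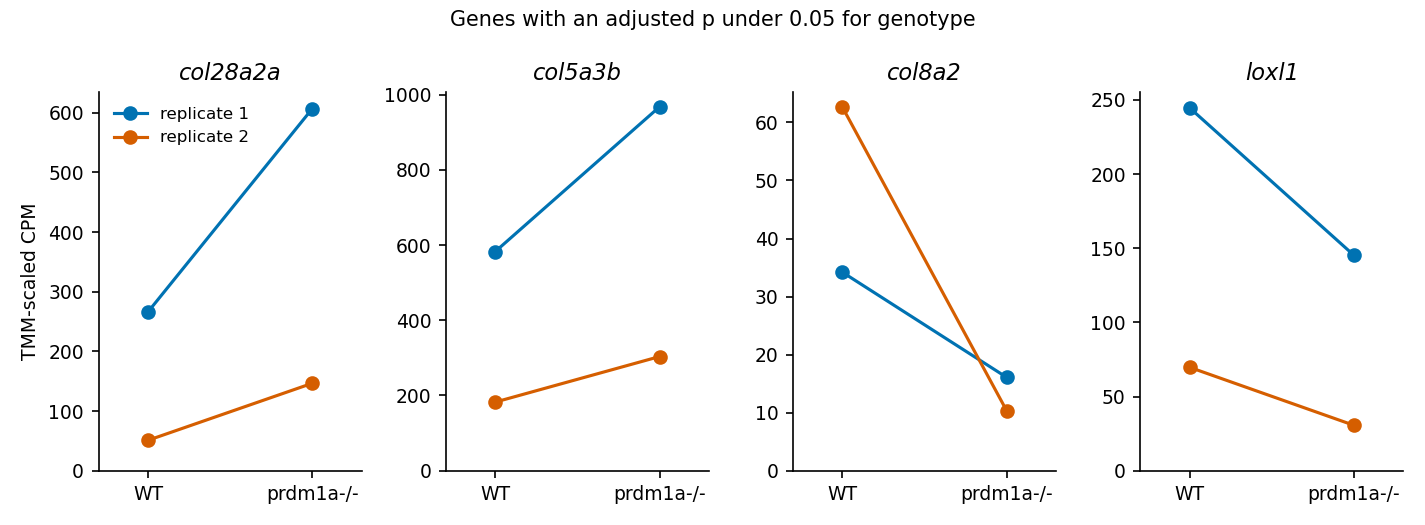
TMM-scaled CPM of the 3 collagen genes and of the crosslinking enzyme gene loxl1, all with an adjusted p under 0.05 for genotype, with a line joining WT and prdm1a-/- of each replicate number. In each panel both lines go the same way, and for col8a2 both mutant values, 16.1 and 10.3 CPM, lie below both WT values.

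The other type 8 gene with enough counts differed between replicate numbers. *col8a1a* was at 395 CPM in WT and 246 CPM in *prdm1a-/-* of replicate 1, and at 4.49 CPM in WT and 3.85 CPM in *prdm1a-/-* of replicate 2. Its replicate difference was -6.23 (SE 0.189, adjusted p = 5.74e-08), or 74.9-fold, beside 0.15 (SE 0.297) for *col8a2*. Its fold change by genotype was -0.51 (SE 0.162, adjusted p = 0.223). *col10a1a*, for a network collagen of mammalian hypertrophic cartilage that zebrafish also make in bone-forming cells, was at 888 and 851 CPM in replicate 1 and 175 and 204 CPM in replicate 2 and had a replicate difference of -2.20 (SE 0.149).

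Type 6 collagen, a beaded filament of soft connective tissue, did not differ at the threshold between replicate numbers. *col6a1* was at 829 CPM in WT and 753 CPM in *prdm1a-/-* of replicate 1, and at 974 CPM in WT and 981 CPM in *prdm1a-/-* of replicate 2. Its replicate difference of 0.31 (SE 0.139, adjusted p = 0.142) did not pass, nor did those of the other type 6 identifiers, at 0.12 (SE 0.136) for *col6a2*, -0.058 and 0.045 for the 2 named *col6a3* and 0.22 (SE 0.136) for *col6a4a*. By genotype the fold changes of these 5 identifiers lay between -0.30 and 0.24, with standard errors between 0.135 and 0.194.

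Fibril-associated collagens, here those of types 12, 14, 16, 19, 21 and 22, sit on fibrils or at tissue junctions, and none of their 9 identifiers passed for genotype. At an unadjusted p under 0.05 there were 4 higher and 1 lower, or 55.6% beside 12.4% of all genes, and the median fold change was 0.41. *col22a1*, a gene of the muscle-tendon junction, was at 71.9 and 102 CPM in replicate 1 and 18.1 and 33.4 CPM in replicate 2, with a fold change of 0.69 (SE 0.154, adjusted p = 0.0761). Of the genes higher at an unadjusted p under 0.05, *col12a1b* was at 1108 and 1577 CPM in replicate 1 and 733 and 962 CPM in replicate 2, and *col14a1b* was at 196 and 270.2 CPM in replicate 1 and 45.9 and 65.1 CPM in replicate 2. *col16a1* was at 383 and 541 CPM in replicate 1 and 263 and 357 CPM in replicate 2. Their fold changes were 0.45 (SE 0.140), 0.48 (SE 0.131) and 0.47 (SE 0.134), and the mutant was higher in each pair for all 3. DESeq2 called 0 of the 9. *col22a1* was called by limma-voom, and by edgeR with the block when 10 counts in every library were asked for (adjusted p = 0.0452) or no filter was used (adjusted p = 0.0127). With RLE size factors (adjusted p = 0.126), library totals (0.220) or counts halved (0.0629) edgeR did not call it.

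The lower one was a *col19a1* identifier (ENSDARG00000076163), at 20.1 and 11.6 CPM in replicate 1 and 12.4 and 5.16 CPM in replicate 2, with a fold change of -1.02 (SE 0.236, adjusted p = 0.0835). With no filter it was called (edgeR, adjusted p = 0.0154), and in none of the other fits with the block. The second *col19a1* identifier (ENSDARG00000096073) was at 3.40 and 1.71 CPM in replicate 1 and 2.31 and 1.31 CPM in replicate 2, with a fold change of -0.90 (SE 0.506, adjusted p = 0.516). Both had lower values in the mutants without overlap. *col12a1a* was at 1553 and 1828 CPM in replicate 1 and 1263 and 1151 CPM in replicate 2, with a fold change of 0.050 (SE 0.152).

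Collagens of epithelial attachment differed between replicate numbers too. *col7a1*, for the anchoring fibrils under the epidermis, was at 196 and 218 CPM in replicate 1 and 47.6 and 58.6 CPM in replicate 2 with a replicate difference of -1.97 (SE 0.137), whereas *col7a1l* was at 117 and 97.4 CPM in replicate 1 and 159 and 202 CPM in replicate 2 with one of 0.75 (SE 0.164). The transmembrane collagens of hemidesmosomes, *col17a1a* and *col17a1b*, had replicate differences of -1.73 (SE 0.194) and -2.04 (SE 0.257), and by genotype 0.69 (SE 0.190) and -0.084 (SE 0.250). Among the basement membrane zone collagens of types 15 and 18, *col18a1a* was at 656 and 666 CPM in replicate 1 and 266 and 435 CPM in replicate 2, and *col15a1b* and *col18a1b* had fold changes of -0.49 (SE 0.180) and -0.85 (SE 0.302).

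The members with the fewest counts were *col8a1b* with 30 and *col10a1b* with 36 over the 4 libraries, both too low to test, and *col28a2b* with 46. No collagen gene was below the minimum of 10. Genotype ratios of the 53 tested members had the same sign in both pairs for 36 (67.9%), 20 higher and 16 lower, beside 59.4% of all genes.

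**Figure D4:**
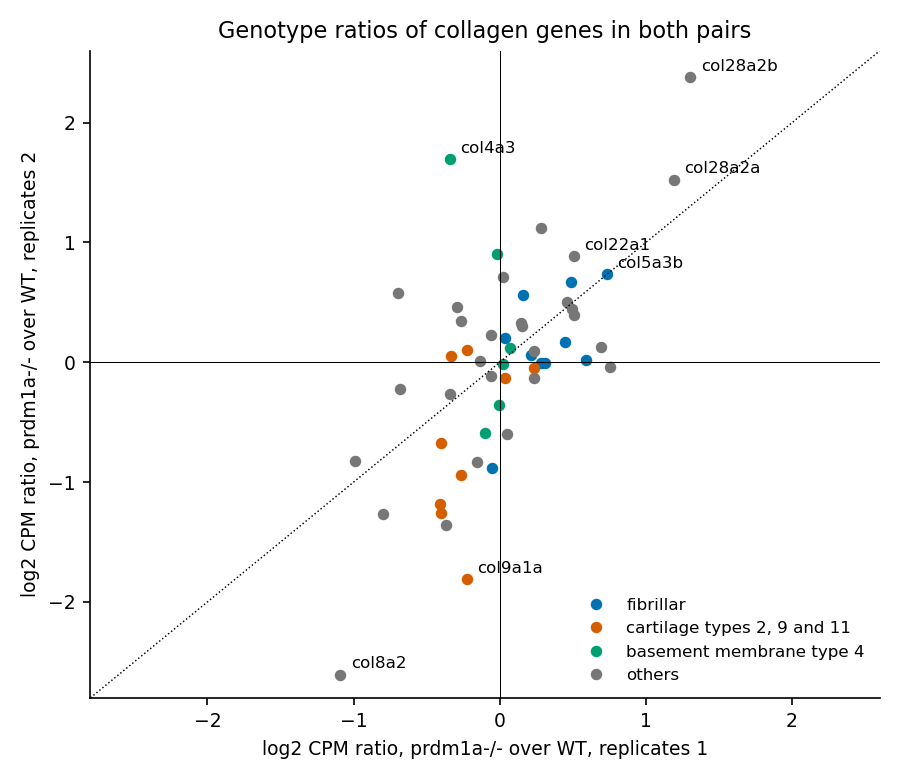
The log2 ratio of prdm1a-/- over WT in the replicate 1 pair (x axis) and the replicate 2 pair (y axis) for the 53 tested collagen genes, coloured by class, with a dotted line where both are equal. Points in the upper right (20) and lower left (16) have the same sign in both pairs, col5a3b and col28a2a lie near the line, and most cartilage genes lie below it.

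Some duplicate copies of a collagen gene had unlike replicate differences. Among 14 pairs of a and b copies, 12 had both copies tested, and the 2 copies differed by more than 2 log2 units in 5. These 5 include col28a1, whose b copy had only 12 and 18 counts in replicate 1 and 16 and 18 in replicate 2. The replicate difference of *col28a1b*, 0.036 (SE 0.857), has a wide error. Reads that match both copies of a pair could have been split or dropped in counting, and how they were treated is not given in the sources used here. For type 2, the count of *col2a1a* over that of *col2a1b* was 6.67 and 4.93 in replicate 1 and 0.498 and 0.228 in replicate 2. The a copy therefore had more counts in replicate 1 and fewer in replicate 2, with replicate differences of -5.43 (SE 0.248) and -1.34 (SE 0.148).

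In type 9 the b copy had the larger difference, with -6.40 (SE 0.198) for *col9a1b* and -2.20 (SE 0.300) for *col9a1a*, and the count ratio of a over b was 0.0395 and 0.0426 in replicate 1 and 1.42 and 0.392 in replicate 2. In type 11 the difference was -3.22 (SE 0.169) for *col11a1a* and -0.77 (SE 0.145) for *col11a1b*, with a count ratio of 6.42 and 4.67 in replicate 1 and 0.952 and 1.06 in replicate 2. The copies of col14a1 had -0.015 (SE 0.184) for a and -2.07 (SE 0.136) for b. Those of col1a1 had nearly the same difference, -1.02 and -1.03. No test of the difference between copies was run.

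**Figure D5:**
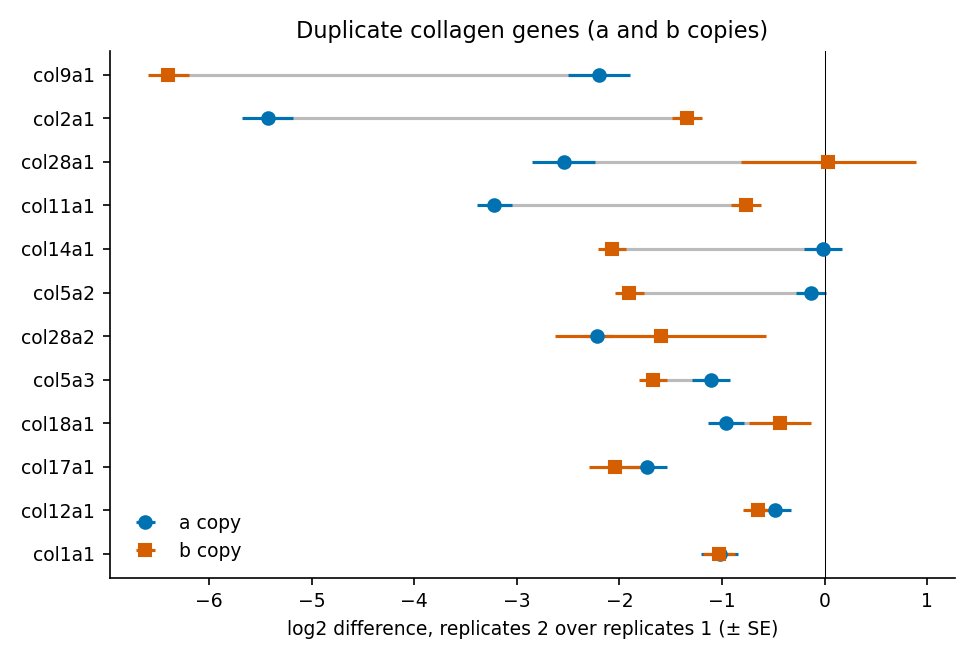
Log2 difference between replicate 2 and replicate 1 libraries, with its standard error, for the a copy (circles) and the b copy (squares) of the 12 duplicate collagen genes with both copies tested, sorted by the distance between the copies. The greatest distances are 4.20 for col9a1 and 4.09 for col2a1, and the copies of col1a1 coincide.

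Some pairs of chains of the same collagen type kept nearly the same count ratio in all libraries. *col9a2* over *col9a3* was 1.28 and 1.42 in replicate 1 and 1.22 and 1.44 in replicate 2, within 1.19-fold, although the WT level of *col9a2* was 22.8-fold and that of *col9a3* 21.6-fold higher in replicate 1 than in replicate 2. The ratio of *col4a5* over *col4a6* was at most 1.26 and stayed within 1.15-fold over the 4 libraries. For *col4a1* over *col4a2* it lay between 1.41 and 1.67, and for *col1a1b* over *col1a2* between 1.11 and 1.27. For *col1a1a* over *col1a2* it lay between 7.83 and 11.6, a 1.49-fold span, and for *col4a3* over *col4a4* the span was 1.81-fold. In contrast *col11a1b* over *col11a2*, 2 chains of type 11, was 0.223 and 0.347 in replicate 1 and 5.12 and 7.89 in replicate 2, a 35.3-fold span, and *col9a1a* over *col9a2* spanned 8.50-fold, *col11a1a* over *col11a2* 5.82-fold and *col9a1b* over *col9a2* 4.23-fold.

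Some of these partners are also neighbours on the chromosome. In the gene order of the RefSeq annotation, with the 53 symbols all found, *col4a1* and *col4a2*, *col4a3* and *col4a4*, and *col4a5* and *col4a6* have no protein-coding gene between them, and neither do *col9a2* and *col16a1*. A single coding gene lies between *col6a1* and *col6a2* and between *col19a1* and *col9a1b*. Members of the type 4 pairs had like replicate differences, -0.65 and -0.57, -2.90 and -2.66, and -0.47 and -0.37, while *col9a2* and *col16a1* did not, at -4.84 and -0.57.

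Genes that process, export, crosslink and bind collagen were called for genotype at about the share of all genes. Of 87 listed names 76 were found and 73 tested, and 1 fell and 0 rose by genotype, which is 1.37% beside 1.01% of all genes. At an unadjusted p under 0.05, 8 were lower and 6 higher, or 19.2% beside 12.4%. The median fold change was 0.028. In replicate 2, 30 were lower (41.1%, beside 10.6% of all genes) and 8 higher than in replicate 1, and the summed level of the 76 was 9584 CPM in WT and 9649 CPM in *prdm1a-/-* of replicate 1 and 7803 and 7851 CPM in those of replicate 2, within 1.24-fold.

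The gene that fell was *loxl1*, for a lysyl oxidase that crosslinks matrix fibres and is best known for its work on elastin in mice. It was at 245 CPM in WT and 145 CPM in *prdm1a-/-* of replicate 1, and at 69.7 CPM in WT and 30.6 CPM in *prdm1a-/-* of replicate 2. The mutant was lower in each pair, with log2 ratios of -0.75 in replicate 1 and -1.19 in replicate 2, and the WT of replicate 2 lay below the mutant of replicate 1. The fold change was -0.97 (SE 0.149, adjusted p = 0.0130), with an adjusted p of 0.104 with scaling to library totals and 0.9999 with genotype alone. Without 1 of the 4 libraries, and so without a replicate term, it ranged from -2.36 to 0.34. It turned above 0 without the WT library of replicate 1, and the replicate difference enters these values by construction.

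For the gene with the most counts in each step no change by genotype passed. *ppib*, a proline isomerase of the prolyl 3-hydroxylase complex, was at 842 and 1139 CPM in replicate 1 and 648 and 892 CPM in replicate 2, with a fold change of 0.45 (SE 0.137, adjusted p = 0.202). *sparc*, for a secreted collagen-binding chaperone, had 0.13 (SE 0.140), and *bmp1a*, which cleaves the C-terminal propeptide of fibrillar procollagens, had 0.14 (SE 0.136). *loxl2a*, for a lysyl oxidase active on type 4 collagen, was at 61.9 and 66.1 CPM in replicate 1 and 366 and 230.0 CPM in replicate 2, higher in replicate 2 by 2.18 (SE 0.187), with a fold change by genotype of -0.29 (SE 0.180). *itgb1a*, the beta chain of the collagen-binding integrins, had a fold change of -0.36 (SE 0.133).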

How the data were processed

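RNA-seq of sorted cells at 48 hpf was used. Chromatin profiles at 24 hpf were not used here. The authors trimmed read pairs from directional libraries, aligned them to danRer11 with STAR (2.7.10b, per the labels) and counted reads per gene with featureCounts, and the deposited counts are whole numbers without normalization. For the gene models and counting options, the sources used here state nothing. Of the genes with 1 to 20 counts in a library, 79.2% to 82.4% had an even count. Whether both reads of a pair were counted was not tested. If they were, the counts and count minimums given here stand for fewer read pairs. The deposited table also holds log2 values of size-factor-scaled counts, and the authors' own comparison by DESeq2, with log2 fold changes, p-values, a score (the test statistic) and a mean normalized count signal, none of which was used.

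Genes were filtered with filterByExpr (minimum count 10, minimum total 15), scaled by TMM and tested with edgeR 4.0.16 in R 4.3.3, with replicate number as a block because genotypes were to be compared within replicate number. This leaves 1 residual degree of freedom, so the spread is shared across genes. Standard errors were taken from the fold change and its F value. Alternatives were genotype alone, DESeq2 1.42.0, limma-voom (limma 3.58.1), RLE size factors, library totals, no filter, 10 counts in every library, leaving out each library, and, added after seeing the data, counts halved. The fits were tested on simulated data. The members, classes and gene lists were chosen with earlier results of these data known. Named were the 3 members with most counts and the 2 with the largest replicate difference in each class, every member called for genotype, the members nearest the count minimum, processing genes called for genotype and the one with most counts in each list. Other genes were described after their values had been seen. Symbols are those of the table, and RefSeq's zebrafish annotation (GRCz12tu) was used only for which genes are neighbours. No test over the list was run.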

Additional observations from a re-analysis of the deposited data

How the results depend on the processing

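The replicate block decided the genotype calls. With it edgeR called 203 of all genes, 3 collagen genes and 1 processing gene, and with genotype alone 0 of each (376 and 1 at an unadjusted p under 0.05 among all genes and collagen genes). Deviations from the genotype mean were shared by libraries of like number (r = 0.70, taken over genes and so not over independent points), and the common dispersion was 0.0446 with the block and 0.255 without. Only 2 numbers exist, and what they share is not stated. Leaving out any of the 4 libraries leaves too few to keep the block, so those fits give effect sizes only.

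With the block kept, the collagen calls were 5 with DESeq2, 8 with limma-voom, 1 with RLE size factors, 1 with library totals, 4 with 10 counts in every library (adding *col22a1*) and 12 with no filter, and all of these included *col28a2a*. Counts halved gave the same 3 genes. Over all genes limma-voom called 434, RLE size factors 128, library totals 55, 10 counts in every library 300 and no filter 636. For processing genes limma-voom called 3, library totals 0 and no filter 4. The 4939 genes that differed between replicate numbers became 2886 with replicate number alone in the model. The 39 collagen genes that did so became 26 in that fit, 25 of them lower in replicate 2. With the block they were 35 with library totals, 37 with DESeq2 and 40 with limma-voom. The median fold change of all genes was 0.0068, and 0.0104 with RLE size factors and -0.030 with library totals.

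Fits that leave out a library have unequal replicate numbers in the genotypes, so the replicate difference enters their fold changes by construction. Class medians then ran from -0.38 to 0.74 for fibrillar, -4.51 to 3.06 for cartilage, -0.69 to 0.28 for type 4 and -0.24 to 0.40 for other genes. The type 4 median was -0.045 with no block and -0.0089 within replicate 1, *col4a6* was at -0.030 with library totals and *col4a3* at -0.099 with no block. Over all genes the median shift from the main fit with library totals was -0.036. The cause of the shifts with no block and within replicate 1 was not tested. Among named genes that changed sign in at least 1 of these fits, the ranges were -0.19 to 1.04 for *col1a1a*, -0.52 to 0.70 for *col1a1b*, -0.39 to 0.61 for *col1a2*, -0.65 to 1.85 for *col5a2b*, -0.34 to 1.80 for *col5a3b*, -5.31 to 3.63 for *col2a1a*, -2.41 to 2.33 for *col11a1a*, -5.56 to 5.28 for *col9a1b*, -0.15 to 0.36 for *col4a5*, -0.20 to 0.20 for *col4a6*, -0.62 to 0.21 for *col4a1*, -1.39 to 2.99 for *col4a3*, -1.40 to 2.41 for *col4a4*, -0.29 to 0.37 for *col12a1a*, -0.26 to 0.12 for *col6a1*, -5.70 to 4.798 for *col8a1a*, -2.11 to 1.46 for *col28a1a*, -0.12 to 2.89 for *col28a2a*, -2.36 to 0.34 for *loxl1*, -0.50 to 0.81 for *sparc* and -1.70 to 1.26 for *loxl2a*. Without a change of sign, *col12a1b* ranged from 0.062 to 0.80, *ppib* from 0.26 to 0.65 and *col28a2b* from 0.80 to 3.04.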
